A study of Mus musculus with 8 samples.

Results

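RNA from the Large and the Medium size fraction of mouse hematopoietic stem cells (HSCs) was compared, in 4 of the 8 libraries of the series. The members were taken from the size label in each sample's title: Large 1 and Large 2 against Medium 1 and Medium 2, with libraries of the same replicate number set against each other as a pair. All cells came from C57BL/6J bone marrow that had been depleted of lineage-positive cells, with antibodies to CD117, Sca-1, CD48 and CD150 used for staining. Per the labels, 10000 HSCs in G0/1 were sorted for each RNA sample. The Large gate took the upper 10% of the forward scatter distribution and the Medium gate the cells within 10% of its mean. The other 4 libraries, Small and All (no size gate), served only to estimate the spread and to place Large and Medium among the 4 groups. The labels give neither the age nor the sex of the mice, and do not tell whether replicate libraries came from different mice. A p-value here therefore covers only how far these libraries differ from each other, and that spread may be technical.

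HSCs are rare marrow cells that renew themselves and give rise to every blood lineage. Most of them rest outside the cell cycle, kept there by transcription factors, growth factor receptors and CDK inhibitors, and those that enter the cycle switch on genes for origin licensing, DNA synthesis and then mitosis. A cell that prepares to divide gains mass before it divides, and primed progenitors begin to transcribe genes of the lineage they will enter, such as those for neutrophil granule proteins. The comparison addresses how the transcriptome differs between HSCs of the largest and of average size.

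Total counts were 15138852 and 15585024 in Large 1 and 2 and 15298376 and 15742594 in Medium 1 and 2, within the series' range of 13698362 to 16838448. Values are CPM (counts scaled to a total of 1000000 with TMM factors), so they are relative to the other RNA of a library. In bulk samples of this kind, fewer cells of a type and less RNA per cell cannot be told apart. The replicate numbers differed more than the size groups: on the leading principal component, with 39.5% of the variance, Large 1 lay at -81.2 and Medium 1 at -31.1, against 0.984 for Large 2 and 56.1 for Medium 2.

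No gene of the 16066 tested passed edgeR's quasi-likelihood test in either direction (0.00% called higher and 0.00% called lower), and every gene had an adjusted p of 0.989 or more. Without adjustment, at p under 0.05, 141 genes were higher in Large (0.878%) and 160 were lower (0.996%). DESeq2 and limma-trend on log2(TPM + 1) values each called 1 gene, which was the same immunoglobulin segment, described last. The groups are therefore described by agreement between the pairs. The background for such counts is large: 5289 genes (32.9%) were higher in Large in both pairs and 5302 (33.0%) were lower. Both Large libraries lay above both Medium libraries for 2945 genes (18.3%) and below them for 2768 (17.2%). On the authors' log2(TPM + 1) values the same counts were 2232 and 3411, so that 39.6% of the genes without overlap were higher in Large, in place of 51.5%. A difference of at least 2-fold in both pairs was seen for 274 genes higher in Large (1.71%) and 623 lower (3.88%). The scatter of pair differences shows how the main gene groups lie within this background.

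**Figure D1:**
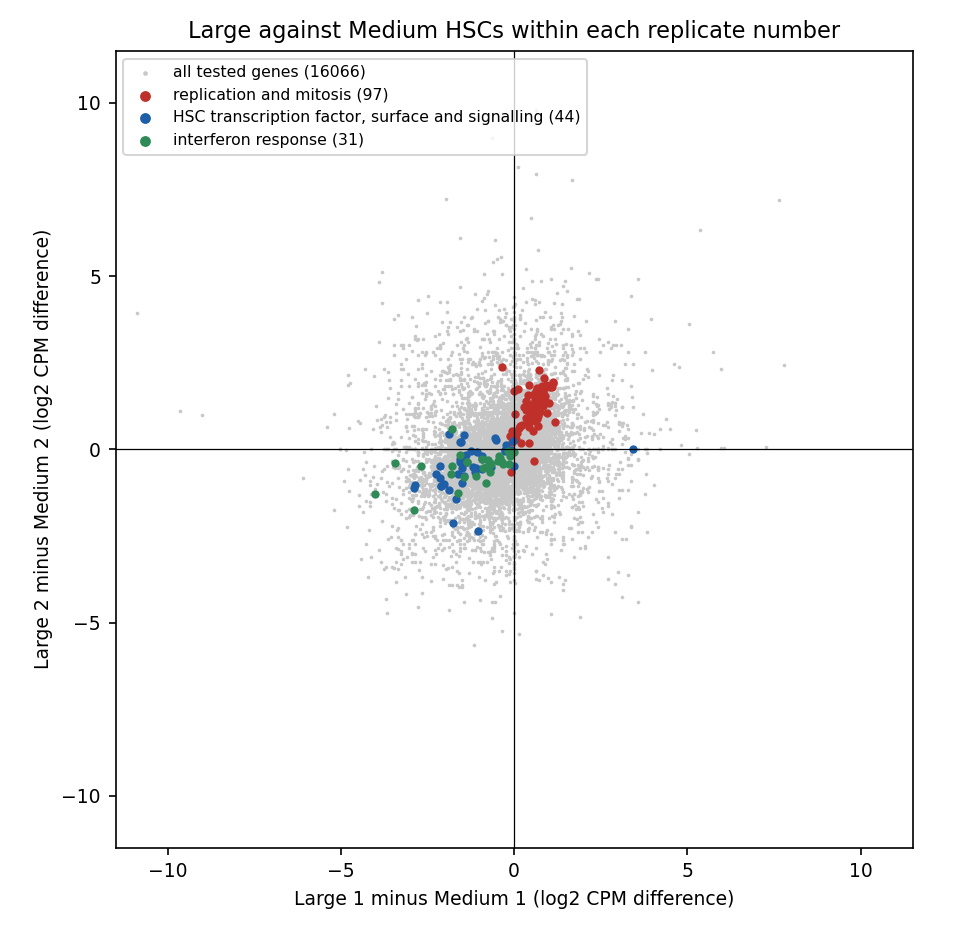
Each point is a tested gene, with the log2 CPM difference of Large 1 minus Medium 1 on the x axis and of Large 2 minus Medium 2 on the y axis. Of the 97 replication and mitosis genes, 90 lie in the upper right quadrant; of the 44 HSC genes, 34 lie in the lower left, as do 29 of the 31 interferon genes.

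Genes of origin licensing and the G1/S transition had higher relative levels in Large, and so did the genes that copy DNA. Of the 24 licensing and G1/S genes, 22 were higher in both pairs and none was lower in both. Both Large libraries lay above both Medium libraries for 16, against 18.3% of all tested genes. Mcm10, which activates the replicative helicase, had 129 and 87.9 CPM in Large 1 and Large 2 against 68.6 and 24.3 CPM in Medium 1 and Medium 2. Cdc6, which loads the helicase on origins, had 275 and 164 CPM in Large and 154 and 49.3 CPM in Medium. Both genes had their lower Large value above their higher Medium value, and in both the Medium 2 library was the lowest of the 4. Their fitted log2 fold changes, Large minus Medium, were 1.23 (SE 0.80) and 1.11 (SE 0.82), neither past the edgeR test. The helicase subunits were more even between the replicate numbers. Mcm5 had 633 and 593 CPM in Large and 392 and 251 CPM in Medium, Mcm7 had 698 and 665 against 435 and 326, and Mcm6 had 1152 and 1161 against 901 and 628. For these 3 subunits the Large libraries lay close together and apart from Medium, with fitted log2 fold changes of 0.93 (SE 0.48), 0.84 (SE 0.33) and 0.60 (SE 0.29). Ccne2, a cyclin that drives entry into S phase, had 77.2 and 40 CPM in Large and 43.5 and 13.1 CPM in Medium, so its groups overlapped although both pairs had the same sign. The median fitted log2 fold change of the list was 0.74 (0.50 in pair 1 and 1.13 in pair 2), beside -0.01 over all tested genes.

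E2F factors bind promoters of many licensing genes. The E2F motif was searched as TTTCCCGC or TTTGGCGC on both strands of RefSeq promoters (build GRCm38.p6, 250 bases before to 50 after a gene start); 11007 of the 16063 tested symbols had an entry. Of the licensing and G1/S genes, 10 of the 19 with an entry held the motif (52.6%), against 3.34% of the tested genes with an entry and 1.56% of all 32851 promoters in the table. Among DNA synthesis genes it was 6 of 29 (20.7%), a share close to that of 2 lists with medians below 0, the HSC transcription factors with 3 of 16 (18.8%) and the antigen presentation genes with 2 of 12 (16.7%). The 4 genes of both lists with the largest agreeing differences and a motif upstream of the start are shown as examples of the motif among genes higher in both pairs, with the motif, or its reverse complement, in capitals: Cdc6 (chr11:98907988-98908045, + strand), Mcm5 (chr8:75109335-75109392, +), Mcm7 (chr5:138172016-138172073, -) and Cdc25a (chr9:109875487-109875544, +).
Cdc6: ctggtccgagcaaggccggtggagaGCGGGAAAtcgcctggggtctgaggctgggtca
Mcm5: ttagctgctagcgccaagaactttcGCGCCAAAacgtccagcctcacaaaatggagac
Mcm7: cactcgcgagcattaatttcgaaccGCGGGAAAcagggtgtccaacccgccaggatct
Cdc25a: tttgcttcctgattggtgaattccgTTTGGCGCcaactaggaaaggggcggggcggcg
Cdc25a, a phosphatase that activates CDKs, had 104 and 72.7 CPM in Large and 75.2 and 38.4 CPM in Medium. A motif match is a description of letters and not of binding.

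Of the 35 genes of DNA synthesis and nucleotide supply, 34 were higher in Large in both pairs. For 28, both Large libraries lay above both Medium libraries, against 18.3% of all tested genes. Rrm1 and Rrm2 encode the subunits of ribonucleotide reductase, which makes deoxyribonucleotides. Rrm1 had 1030 and 782 CPM in Large and 593 and 299 CPM in Medium, and Rrm2 had 812 and 510 CPM against 371 and 134 CPM. Rrm2 had the larger difference, at least 2-fold in both pairs (log2 differences of 1.13 and 1.93), with a fitted value of 1.39 (SE 0.97). Pcna, the polymerase clamp, had 617 and 560 CPM against 415 and 282 CPM, and Slbp, which binds histone mRNA, had 731 and 622 CPM against 499 and 326 CPM. Tk1 (thymidine kinase) and Exo1 (an exonuclease of repair) also had no overlap, with fitted log2 fold changes of 1.00 (SE 0.72) and 1.09 (SE 0.70). The list median was 0.73 (0.53 and 1.02). By edgeR, 6 of the 35 genes had an unadjusted p under 0.05, beside 301 of the 16066 tested genes. None of the 35 had an adjusted p under 0.989.

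These replication genes also stood at the upper end of the whole series. For 26 of the 35 DNA synthesis genes and 12 of the 24 licensing genes, both Large libraries lay above all 6 other libraries, against 4.30% of all tested genes. For genes of G2/M and mitosis the same held for 2 of 38, and Small 1 lay above the lower Large library for 20 of the 38 and All 1 for 32, as the plot by library shows.

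**Figure D2:**
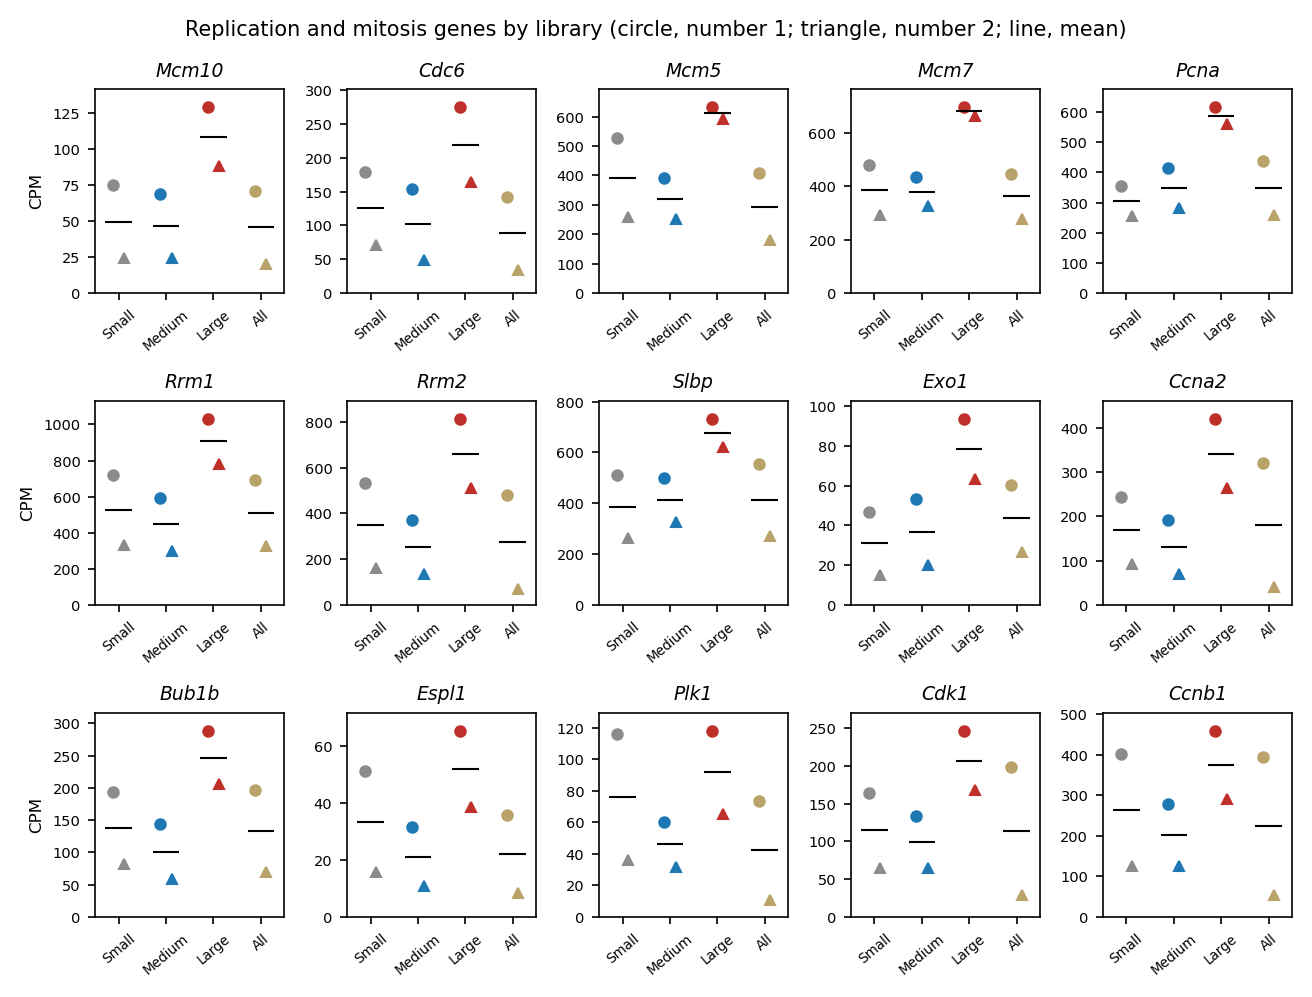
CPM (linear axis from 0) of 15 replication and mitosis genes in the 8 libraries, with circles for number 1, triangles for number 2 and a line for the group mean. Both Large points lie above both Medium points in every panel, while for the mitosis genes Small 1 or All 1 lies near or above the lower Large point. The panels are a selection: Large lay above Medium without overlap for 68 of the 97 replication and mitosis genes.

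Mitosis genes were higher in Large than in Medium as well. Of the 38 G2/M and mitosis genes, 34 were higher in both pairs. Large lay on top without overlap for 24, against 18.3% of all tested genes. The median fitted log2 fold change was 0.96 (0.73 and 1.35). Ccna2, the cyclin of S and G2 phase, had 419 and 263 CPM in Large and 192 and 70.0 CPM in Medium (log2 1.38, SE 0.96). Bub1b, a spindle checkpoint kinase, had 288 and 206 CPM in Large and 144 and 58.3 CPM in Medium (log2 1.29, SE 0.67). The log2 differences in pairs 1 and 2 were 1.13 and 1.91 for Ccna2 and 1.00 and 1.82 for Bub1b, and the Large and Medium libraries did not overlap. Espl1 (separase, which cuts cohesin), Incenp (the scaffold of the Aurora B complex) and Plk1 (a mitotic kinase) had log2 differences of 1.05, 1.00 and 0.96 in pair 1 and 1.80, 1.34 and 1.04 in pair 2. Ccnb1, the mitotic cyclin, had 458 and 290 CPM against 278 and 126 CPM. Top2a, which untangles chromosomes, overlapped, with 400 and 305 CPM in Large and 306 and 123 CPM in Medium. The members that did not follow, named after their values were seen, were Pttg1 (securin), which was lower in both pairs at 47.8 and 41.2 CPM against 51.3 and 64.7 CPM, and Mki67, Cenpf and Cenpa, whose pairs had opposite signs. Mki67 had 60.7 and 18.7 CPM in Large and 63.0 and 16.3 CPM in Medium.

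The replicate numbers differed as well, more within Medium than within Large. Within Medium the number 1 library exceeded the number 2 library by a median log2 of 1.27 for mitosis genes, 0.85 for licensing genes and 0.78 for DNA synthesis genes; within Large these medians were 0.66, 0.31 and 0.23. Medium 2 was the lowest of the 4 libraries for 95 of the 97 genes of the 3 lists. Without Medium 2 the medians were 0.43, 0.37 and 0.41, and without Medium 1 they were 1.60, 1.25 and 1.16; their direction stayed the same in every fit that left out a library.

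Promoters of mitosis genes often hold a cell cycle homology region (CHR) near a CCAAT box. The CHR motif, TTTGAA or TTTAAA on both strands, was in the window of 27 of the 32 mitosis genes with an entry (84.4%), against 23.2% of tested genes and 27.6% of all promoters in the table. CCAAT, also on both strands, accompanied it in 22 of the 32 (68.8%, against 10.9% of tested genes), and none of the 32 held the E2F motif; no motif contains the letters of another. The 4 mitosis genes with the largest agreeing differences and a CHR upstream of the start are shown as examples of the motif among genes higher in both pairs, with that motif in capitals: Espl1 (chr15:102296241-102296292, +), Plk1 (chr7:122159321-122159376, +), Kif2c (chr4:117178976-117179022, -) and Cdk1 (chr10:69352953-69353008, -).
Espl1: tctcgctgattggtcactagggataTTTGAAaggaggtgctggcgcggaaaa
Plk1: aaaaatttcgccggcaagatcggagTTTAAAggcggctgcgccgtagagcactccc
Kif2c: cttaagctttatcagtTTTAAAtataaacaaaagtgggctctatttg
Cdk1: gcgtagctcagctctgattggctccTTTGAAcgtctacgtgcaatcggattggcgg
Cdk1, the kinase that drives mitosis, had 246 and 168 CPM in Large and 133 and 64.4 CPM in Medium. Kif2c, a kinesin that takes microtubules apart, had 107 and 69.2 CPM against 56.4 and 19.8 CPM.

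Genes that define HSCs were lower in Large. Of 20 HSC transcription factors, 16 were lower in both pairs and none was higher, with a median fitted log2 fold change of -0.72 (-1.09 and -0.51). Of 24 HSC surface and signalling genes, 18 were lower in both pairs and none was higher (median -0.86; -1.52 and -0.32). The other 6 were mixed, and 1 of the 24 had a fitted log2 fold change above 0, of 6.32. Large lay below Medium without overlap for 8 transcription factors and 11 surface and signalling genes, against 17.2% of all tested genes. For 7 of the 44 genes both Large libraries lay below all 6 others, against 2.88% of tested genes. By edgeR 2 and 5 genes of these lists had an unadjusted p under 0.05, beside 301 of the 16066 tested genes. None of them passed after adjustment.

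Hlf, a transcription factor largely restricted to HSCs in marrow, had 25.2 and 151 CPM in Large 1 and Large 2 against 121 and 247 CPM in Medium 1 and Medium 2 (log2 -1.07, SE 1.1). Nkx2-3 showed the same arrangement, with 12.4 and 81.0 CPM against 35.3 and 160 CPM. In both genes each Large library lay below its paired Medium library, but Large 2 exceeded Medium 1, so the groups overlapped. Meis1, a homeobox factor needed for HSC maintenance, had 119 and 226 CPM in Large and 258 and 330 CPM in Medium, without overlap (log2 -0.77, SE 0.44). Mllt3, which supports HSC self-renewal, had 23.2 and 33.2 CPM against 63.5 and 56.2 CPM (log2 -1.09, SE 0.38). Hoxb5, a homeobox gene used to mark long-term HSCs, had 0.929 and 2.83 CPM against 4.44 and 5.97 CPM, and Hoxb4, another homeobox gene, had at most 2.13 CPM in any of the 4 libraries. Lmo2, a partner of the Tal1 complex, had 348 and 707 CPM against 551 and 1017 CPM. Etv6 differed little, with 168 and 218 CPM against 199 and 226 CPM.

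Among surface and signalling genes, Sult1a1 (a sulfotransferase found in HSC signatures) had 6.5 and 18.7 CPM in Large and 49.3 and 40.5 CPM in Medium, a log2 difference of -2.90 in pair 1 and -1.11 in pair 2. Procr, which encodes the endothelial protein C receptor used to purify HSCs, had 5.29 and 60.4 CPM against 39.1 and 124 CPM. Procr was thus lowest in Large 1 and highest in Medium 2, with Large 2 above Medium 1. Ltb (lymphotoxin beta) and Ifitm1 (an interferon-induced membrane protein) had the same order, at 13.2 and 106 CPM against 48.7 and 241 CPM and at 70.3 and 434 CPM against 305 and 901 CPM. Angpt1, a ligand of the Tie2 receptor, had 91.9 and 160 CPM against 258 and 182 CPM, without overlap (log2 -0.80, SE 0.44). Ptprb had under 3 CPM in all 4 libraries. Large 1 was the lowest of the 4 libraries for 34 of the 44 HSC genes. Without Large 1 the medians were -0.41 for the transcription factors and -0.46 for the surface genes, and without Large 2 they were -1.30 and -1.39, so they kept their sign.

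**Figure D3:**
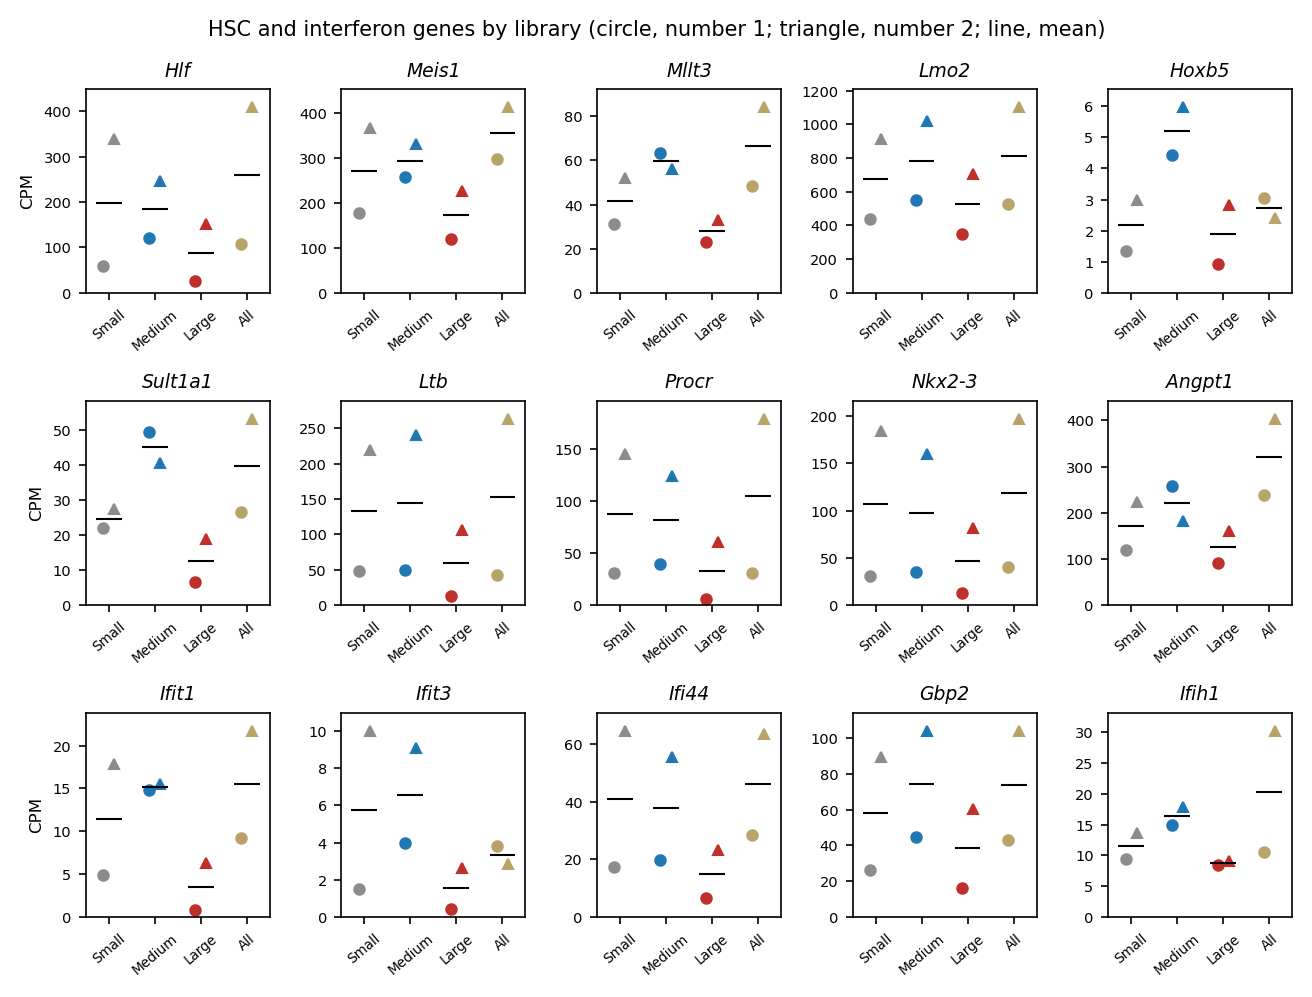
CPM (linear axis from 0) of 10 HSC genes (upper 2 rows) and 5 interferon genes (lower row) in the 8 libraries, with circles for number 1, triangles for number 2 and a line for the group mean. The Large mean lies below the Medium mean in every panel, and Large 1 is below Medium 1 and Large 2 below Medium 2 throughout. The panels are a selection: both pairs were lower for 34 of the 44 HSC genes and 29 of the 31 interferon genes.

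The genes of the 4 sort antigens were mixed. For Sca-1, the gene Ly6a had 20.4 and 186 CPM in Large and 90.4 and 366 CPM in Medium, so each pair was lower in Large, and Large 2 lay above Medium 1. Kit had 513 and 699 CPM against 662 and 841 CPM, also lower in both pairs. Slamf1 (CD150) had 7.58 and 11.4 CPM against 22.1 and 8.74 CPM, with opposite signs in the pairs. Cd48, whose protein is absent or low on HSCs and appears on multipotent progenitors, was detected in every library and had no overlap, at 159 and 105 CPM in Large and 76.8 and 66.1 CPM in Medium (log2 0.89, SE 0.74, edgeR adjusted p = 0.989). Of the 4 antigens, Cd48 alone was higher in both pairs.

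Genes of quiescence and CDK inhibition were lower in both pairs for 14 of 20, with a median of -0.33 (-0.48 and -0.21), which moved to -0.09 without Medium 2, -0.11 without Large 1 and -0.80 without Large 2. Cdkn1c (p57, a CDK inhibitor of resting HSCs) had 5 and 20 CPM in Large and 12.2 and 32.7 CPM in Medium. Foxo3, a factor of stress resistance in HSCs, had 10.8 and 21.6 CPM against 21.3 and 33.9 CPM, and Mxd4, an antagonist of Myc, had 22.1 and 42.0 CPM against 44.0 and 64.2 CPM. Of these 3 genes only Mxd4 had no overlap between the groups. In both pairs, 3 of the 20 genes were higher in Large, and the highest fitted log2 fold change of the list was 2.69. Gfi1, a repressor active in HSCs and in neutrophil precursors and named here after its values were seen, went the other way at 63.5 and 58.9 CPM against 29.0 and 37.1 CPM (log2 0.89, SE 0.35).

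Neutrophil primary granule and myeloid progenitor genes were higher in Large than in Medium. Of 25 such genes, 21 were higher in both pairs and none was lower in both. Large lay above Medium without overlap for 16, against 18.3% of all tested genes. At least 2-fold higher in both pairs were 8, against 1.71% of all tested genes. The median was 1.00 (0.99 and 1.13). Mpo, myeloperoxidase (chr11:87793581-87804413 in the GENCODE M21 annotation of GRCm38), had 16527 and 7201 CPM in Large 1 and Large 2 against 5516 and 2404 CPM in Medium 1 and Medium 2. Both pairs had a log2 difference of 1.58, and Large 2 lay above Medium 1, although the fitted value of 1.58 had an SE of 1.42. Elane, neutrophil elastase, had 6329 and 2502 CPM against 2117 and 935 CPM, and Ctsg, cathepsin G, had 2194 and 747 CPM against 693 and 306 CPM. Ms4a3, a marker of granulocyte-monocyte progenitors, overlapped at 1154 and 383 CPM against 431 and 154 CPM, with log2 differences of 1.42 and 1.31. Anxa3 (annexin A3) had 330 and 152 CPM against 114 and 59.1 CPM. Srgn, the granule proteoglycan, did not follow, with 1769 and 1533 CPM against 1259 and 1568 CPM.

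The summed level of this list was 35457 and 16335 CPM in Large and 13498 and 7595 CPM in Medium, and it is the level of the number 1 libraries that is high in both groups. Without Large 1 the median was 0.45, without Medium 2 0.67 and without Medium 1 1.61. For 1 of the 25 genes both Large libraries lay above all 6 others (4.0%, against 4.30% of all tested genes). Small 1 lay above the lower Large library for 23 of the 25, beside 10600 of the 16066 tested genes. The list summed to 26312 and 8851 CPM in Small. Among the 8 libraries Mpo ranged from 132 CPM in All 2 to the value in Large 1, and Small 1 had 13617 CPM. Its part in the other differences between Large and Medium was not tested.

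Markers of other marrow cells moved less evenly, as the plot of summed marker levels shows. Mature granulocyte genes were higher in both pairs for 12 of 20, with a median of 0.35 made up of 0.04 in pair 1 and 1.02 in pair 2. S100a8, a calcium-binding protein of mature neutrophils, had 4322 and 2660 CPM in Large and 4279 and 1077 CPM in Medium. Ngp, a secondary granule protein, had 5883 and 3875 CPM against 4373 and 1203 CPM. In both genes Medium 2 stood apart as the low library, and without it the list median was -0.28. Mast cell, basophil and eosinophil genes had a median of 1.01, from -0.05 in pair 1 and 2.51 in pair 2, and their sum was 201.2 CPM in Medium 2 against 799.2 to 1348 CPM in the other 3 libraries. Hdc, histidine decarboxylase, was the member at least 2-fold higher in both pairs, at 248 and 150 CPM against 119 and 63.4 CPM. Prg2, the eosinophil major basic protein, had 164 and 493 CPM in Large and 231 and 10.8 CPM in Medium.

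Erythroid genes followed the replicate number, with Car1 (carbonic anhydrase) at 1805 and 284 CPM in Large and 1046 and 169 CPM in Medium; 12 of 20 genes were higher in both pairs, and the list median of 0.47 became -0.45 without Large 1 and -0.24 without Medium 2. Megakaryocyte and platelet genes had a median of -0.40, lower in pair 1 (-0.78) and not in pair 2 (0.11), and 0.10 without Medium 1. Genes of multipotent and lymphoid-primed progenitors were mixed for 10 of 15, with Cd34 at 333 and 908 CPM against 314 and 1128 CPM. Macrophage and dendritic cell genes and T and NK cell genes summed to at most 238.4 and 115.4 CPM in the 4 libraries. Endothelial and stromal genes summed to 195.6 and 280.7 CPM in Large and 357.3 and 353.2 CPM in Medium, and 12 of 21 were lower in both pairs (median -0.78; -1.02 and -0.26). The sums were 306.2 and 287.9 CPM in Small and 180.1 and 214.4 CPM in All. For 0 of the 21 genes both Large libraries lay below all 6 others. Sparc, a matrix protein, had 9.01 and 16.6 CPM in Large against 24.3 and 29.6 CPM in Medium. Igfbp7 had 4.36 and 6.64 CPM against 13.5 and 15.8 CPM, and neither gene overlapped. In All, Sparc had 6.34 and 3.71 CPM and Igfbp7 had 2.51 and 0.619 CPM. Cdh5, the defining endothelial cadherin, was at 0.0715 and 0.395 CPM in Large and 0.75 and 1.17 CPM in Medium. Other members did not follow, as 8 of the 21 were mixed. Among the most abundant, Cxcl12 had 53.0 and 55.9 CPM in Large against 90.5 and 48.9 CPM in Medium. Pecam1 had 47.2 and 67.8 CPM against 37.9 and 81.1 CPM, so both genes had opposite signs in the pairs. Emcn was lower in both pairs but overlapped.

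**Figure D4:**
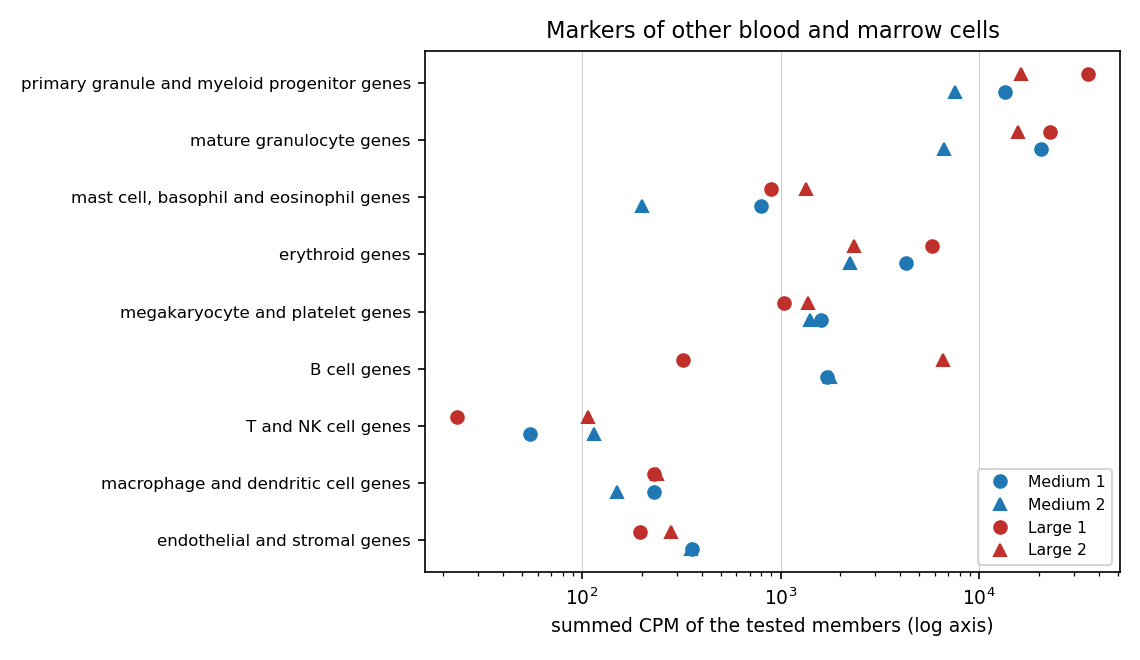
Summed CPM of the tested members of 9 marker lists (log axis) in Medium (blue) and Large (red), with circles for number 1 and triangles for number 2. Primary granule genes are highest in Large 1, and B cell genes spread from 322.6 CPM in Large 1 to 6610 CPM in Large 2.

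B cell genes showed the widest split. Their sum was 322.6 CPM in Large 1 and 6610 CPM in Large 2, with Medium 1 and 2 between at 1721 and 1773 CPM. Ighm, the mu heavy chain, had 204 and 3763 CPM in Large and 814 and 1050 CPM in Medium, and Igkc, the kappa constant region, had 48.2 and 1838 CPM against 788 and 424 CPM. The pairs had opposite signs for 14 of 20 genes, and the median of 1.06 became -2.38 without Large 2. No direction can be given for this list.

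Interferon response genes were lower in Large in both pairs for 29 of 31, and none was higher in both. The median was -0.60 (-0.82 and -0.41), and 6 genes of the 31 had no overlap, near the 17.2% of all tested genes. Ifit1 and Ifit3, antiviral RNA-binding proteins, had 0.786 and 6.25 CPM in Large against 14.8 and 15.5 CPM in Medium, and 0.429 and 2.63 CPM against 4.00 and 9.11 CPM. Ifih1, the RNA sensor MDA5, had 8.36 and 9.14 CPM against 14.9 and 17.9 CPM. These 3 genes had both Large libraries below both Medium libraries, with fitted log2 fold changes of -2.10 (SE 1.03), -2.09 (SE 1.15) and -0.90 (SE 0.54). Ifi44 had 6.43 and 23.3 CPM against 19.9 and 55.5 CPM, and Gbp2, a GTPase induced by interferon gamma, had 16.3 and 60.4 CPM against 44.5 and 104 CPM. The transcription factor gene Irf1 showed small pair differences of -0.14 and -0.41. Large 1 was the lowest library for 29 of the 31 genes and Medium 2 the highest for 29. The list median was -0.11 without Large 1, -0.15 without Medium 2, -0.89 without Medium 1 and -1.15 without Large 2.

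The interferon-stimulated response element (ISRE), searched after the other motifs as TTTC, any 2 bases and TTTC on both strands, was in the promoter window of 15 of the 22 interferon genes with an entry (68.2%), against 3.99% of tested genes and 3.44% of all promoters in the table. The 4 interferon genes with the largest agreeing differences and an upstream match are shown as the members this motif search bears on. They are Ifit3 (chr19:34583348-34583407, +), Ifit1 (chr19:34640760-34640819, +), Gbp2 (chr3:142620579-142620638, +) and Isg15 (chr4:156200862-156200921, -). Only the first match, or its reverse complement, is in capitals, and the Ifit1 and Isg15 stretches hold further matches in lower case.
Ifit3: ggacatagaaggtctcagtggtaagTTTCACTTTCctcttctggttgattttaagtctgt
Ifit1: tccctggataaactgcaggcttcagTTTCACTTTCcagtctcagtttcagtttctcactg
Gbp2: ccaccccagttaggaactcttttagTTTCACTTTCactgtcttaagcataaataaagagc
Isg15: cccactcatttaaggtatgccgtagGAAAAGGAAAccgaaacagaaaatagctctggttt
Isg15, a ubiquitin-like protein, had 5.15 and 18.7 CPM in Large and 18.4 and 30.9 CPM in Medium. Ifit3, Ifit1 and Gbp2 share the same 10 letters of the match in capitals, TTTCACTTTC.

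Antigen presentation genes, several of which interferon induces, were lower in both pairs for 13 of 17, by a median of -0.24. Cd74, the MHC class II invariant chain, had 33.0 and 360 CPM in Large and 168 and 591 CPM in Medium. H2-K1, a class I heavy chain, had 1055 and 1868 CPM against 1545 and 2574 CPM. Without Medium 2 the list median was 0.10 and without Large 1 it was 0.01.

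Immediate early genes, which dissociation and sorting also induce, were lower in both pairs for 17 of 20 (median -0.56; -0.52 and -0.48), and 5 of the 20 had no overlap, against 17.2% of all tested genes. The median was -0.25 without Medium 2 and -0.34 without Large 1. Nr4a1, an orphan nuclear receptor, had 475 and 2195 CPM in Large and 1030 and 3094 CPM in Medium. Fos had 704 and 266 CPM against 1111 and 336 CPM, and Jun had 725 and 861 CPM against 904 and 868 CPM. The replicate numbers differed in opposite ways for Fos and Nr4a1, while each Large library lay below its Medium partner in all 3 genes. Zfp36, an RNA-destabilizing protein, had 380 and 166 CPM against 546 and 294 CPM.

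Genes for protein folding in the endoplasmic reticulum were higher in Large in both pairs for 18 of 22, with a median of 0.52 (0.59 and 0.36). Large lay above Medium without overlap for 10, against 18.3% of all tested genes. Hspa5, the chaperone BiP, had 2574 and 1937 CPM in Large and 1638 and 1639 CPM in Medium (log2 0.46, SE 0.20). Pdia3, a disulfide isomerase, had 1870 and 1322 CPM against 1119 and 891 CPM (log2 0.67, SE 0.30). Calr, calreticulin, had 1629 and 907 CPM against 879 and 704 CPM. In these 3 genes Medium 1 and Medium 2 lay closer to each other than Large 1 and Large 2 did. Sdf2l1, an endoplasmic reticulum stress-induced protein, had the largest agreeing difference but overlapped, at 325 and 131 CPM against 162 and 60.2 CPM. Without Large 1 the list median was 0.17, without Medium 2 it was 0.32 and without Large 2 it was 0.79. For 0 of the 22 genes both Large libraries lay above all 6 others, and Small 1 lay above the lower Large library for 21. Many of these genes are also highly expressed in secretory and granule-forming cells, and the summed primary granule level was also highest in Large 1; its part in the result was not tested.

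Cytosolic and mitochondrial chaperones were higher in both pairs for 17 of 20 by a median of 0.35, which was 0.09 without Large 1 and 0.14 without Medium 2. Hspa1b, the inducible Hsp70, had 59.0 and 78.5 CPM in Large and 28.1 and 49.1 CPM in Medium, while its near-identical copy Hspa1a shares reads with it, so the split between them is uncertain. Hspa8, the constitutive Hsp70, had 5192 and 3875 CPM against 4177 and 3516 CPM, and Cct5, a subunit of the chaperonin for actin and tubulin, had 1009 and 792 CPM against 751 and 671 CPM. The groups overlapped for Hspa8 and not for Hspa1b or Cct5.

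Ribosome biogenesis genes were higher by a small amount, in both pairs for 34 of 39 and in none lower in both (median 0.26; 0.29 and 0.23). Nop56, a box C/D snoRNP protein, had 702 and 626 CPM in Large and 571 and 516 CPM in Medium, and Rrp1b had 98.4 and 81.3 CPM against 69.0 and 53.5 CPM, both without overlap. Without Large 1 the median was 0.01 and without Medium 2 it was 0.07. The ribosomal proteins themselves went the other way, although their median of -0.12 (-0.05 and -0.20) was small. Of the 79, 48 were lower in both pairs and 7 higher. Without overlap below Medium were 31 of the 79, against 17.2% of all tested genes. Their summed level was 29838 and 26602 CPM in Large and 30664 and 30528 CPM in Medium. It was lower in Small (22909 and 20134 CPM) and in All (25316 and 24894 CPM). For 0 of the 79 genes both Large libraries lay below all 6 others. Rps27 had 238 and 249 CPM in Large against 307 and 390 CPM in Medium, without overlap. Rplp0, a stalk protein, was among the exceptions at 1448 and 1278 CPM against 1213 and 1269 CPM. Large 2 was the lowest library for 63 of the 79 ribosomal protein genes, and without it the median was -0.02; processed pseudogenes make counts of such genes uncertain.

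The nuclear and mitochondrial genes of the respiratory chain lay on opposite sides. Of the 13 protein-coding genes of mitochondrial DNA, all 13 were lower in Large in both pairs. In 8 of them the groups had no overlap, against 17.2% of all tested genes lower without overlap. The median was -0.43 (-0.44 and -0.38), and between -0.26 and -0.70 with a library left out. The cytochrome oxidase subunit mt-Co1 had 2200 and 2451 CPM in Large and 2757 and 3027 CPM in Medium, mt-Co3 had 161 and 52.3 CPM against 330 and 279 CPM, and mt-Nd5 of complex I had 101 and 84.0 CPM against 180 and 122 CPM. All 3 had Large below Medium throughout, and mt-Co3 had the largest difference of the 13 genes (log2 -1.51, SE 0.73). For 0 of the 13 genes both Large libraries lay below all 6 others. The 13 genes summed to 9123 and 7956 CPM in Large and 11496 and 9961 CPM in Medium. Their sums were 6410 and 10341 CPM in Small and 8282 and 9867 CPM in All. Of 76 nuclear genes of the chain, 59 were higher in both pairs and 3 lower, by a median of 0.22 (0.30 and 0.14). Atp5b, the catalytic subunit of ATP synthase, had 2514 and 2001 CPM against 1795 and 1641 CPM, and Ndufs1 of complex I had 295 and 210 CPM against 196 and 159 CPM, both without overlap. Large 1 was the highest library for 72 of the 76, and without it the median was -0.05 (0.05 without Medium 2), so the direction of the nuclear genes rests on that library, while that of the mitochondrial genes does not. With RLE factors in place of TMM the medians were -0.43 and 0.22, and on log2(TPM + 1) values -0.54 and 0.11.

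Glycolysis genes were higher in both pairs for 9 of 18 and lower for 4 (median 0.19, and 0.08 without Medium 1), with Gpi1, which converts glucose 6-phosphate, at 926 and 631 CPM in Large and 518 and 454 CPM in Medium and Eno1 (enolase) at 1216 and 1035 CPM against 808 and 802 CPM. Both genes had no overlap. Genes of the amino acid and integrated stress response split evenly, 10 higher and 10 lower in both pairs. Phgdh, which starts serine synthesis, had 377 and 465 CPM against 277 and 370 CPM; Shmt2 and Mthfd2, which use serine for mitochondrial folate metabolism and are named after their values were seen, had 179 and 174 CPM against 131 and 124 CPM and 58.7 and 44.1 CPM against 33.8 and 20.0 CPM. On the lower side were Sesn2 (9.08 and 14.8 CPM against 14.6 and 25.6 CPM) and Nupr1 (7.08 and 12.3 CPM against 29.5 and 15.9 CPM), both targets of Atf4. Actin cytoskeleton and cholesterol synthesis genes had medians of 0.04 and -0.11. The plot of list medians sets all 30 lists side by side.

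**Figure D5:**
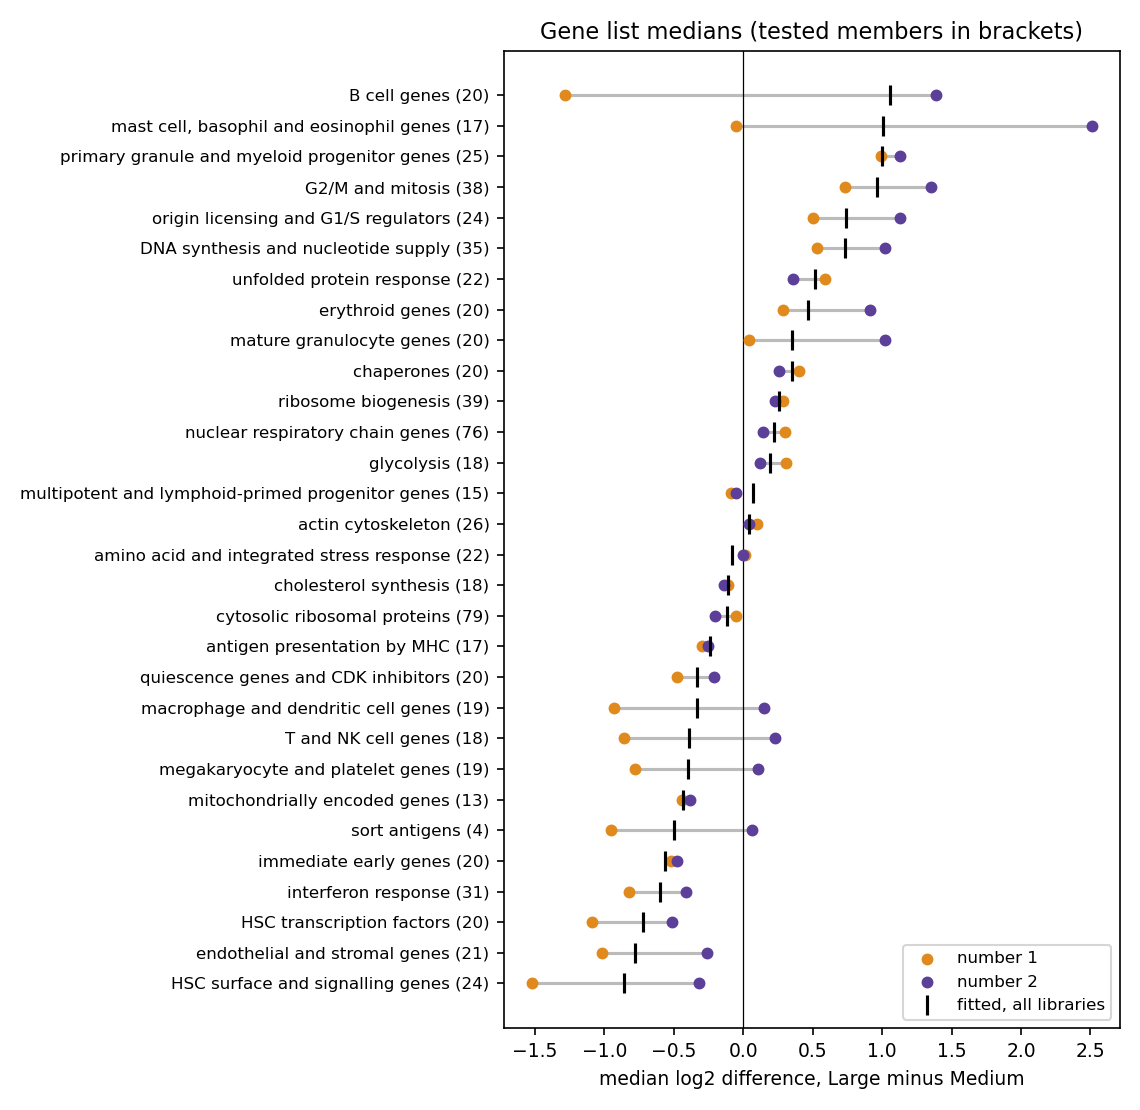
Median log2 difference, Large minus Medium, of the tested members of 30 gene lists, within replicate number 1 (orange), within number 2 (purple) and fitted over all 8 libraries (black bars). Replication, mitosis and primary granule lists lie above 0 and HSC, interferon, immediate early and mitochondrially encoded lists below 0 in both numbers, while B cell, mast cell, megakaryocyte, macrophage, T cell and sort antigen lists change sign between the numbers.

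The genes with the largest agreeing differences, among those with at least 5 CPM on average and no overlap, came from several of these groups. Chdh, choline dehydrogenase (chr14:30009023-30040527), led the higher genes with 36.8 and 17.2 CPM in Large and 8.57 and 3.33 CPM in Medium (log2 2.18, SE 0.84, unadjusted p = 0.0365 and adjusted p = 0.989 by edgeR). Olfm4, a neutrophil granule protein, had 17.7 and 7.17 CPM against 3.94 and 1.60 CPM, and Papss2, which makes the sulfate donor PAPS, had 33.5 and 17.4 CPM against 10.3 and 2.22 CPM. In these 3 genes each number 1 library exceeded its number 2 counterpart. In Small, Chdh had 33.4 and 13.1 CPM, Olfm4 31.8 and 9.5 CPM and Papss2 29.5 and 6.21 CPM. In All they had 15.3 and 4.28 CPM, 42.6 and 6.64 CPM, and 11.8 and 2.98 CPM. Small 1 thus lay above Large 2 in all 3 genes. That the lower Large value lay above both Medium values was a condition for naming them. Fancd2, the central protein of the Fanconi anemia repair pathway, had 89.9 and 55.3 CPM against 33.9 and 12.0 CPM, and Troap, a spindle-associated protein, had 25.9 and 12.8 CPM against 9.13 and 3.02 CPM; both belong with the replication and mitosis genes by function but are in none of the lists. S1pr3, a sphingosine 1-phosphate receptor, had 35.9 and 28.1 CPM against 13.7 and 11.3 CPM, and Nrg1, neuregulin, had 16.4 and 9.54 CPM against 4.13 and 3.45 CPM. The other named genes on this side were Mpo, Elane, Anxa3, Trim45, Mgl2, Dmkn, Abca13 and Sgms2, with fitted log2 fold changes of 1.48 to 1.92.

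On the lower side Tnik, a kinase of Wnt signalling, had replicates close together, with 9.58 and 9.73 CPM in Large and 24.3 and 25.7 CPM in Medium (log2 -1.37, SE 0.37, unadjusted p = 0.00752, adjusted p = 0.989 by edgeR). Inpp4b, a phosphoinositide phosphatase, had 3.86 and 6.71 CPM against 19.2 and 18.4 CPM (log2 -1.83, SE 0.52), and Plekhg1 had 1.14 and 2.76 CPM against 10.3 and 7.51 CPM (log2 -2.18, SE 0.57). For these 3 genes, picked by the rule for large agreeing differences without overlap, the difference between the groups exceeded that within either group. Tm4sf1, a membrane protein of endothelial cells, had 0.786 and 3.55 CPM against 5.88 and 12.0 CPM, and Hoxa5, a homeobox gene, had 1.79 and 4.60 CPM against 8.57 and 14.4 CPM. Parp14, an interferon-induced ADP-ribosyltransferase, had 8.36 and 16.2 CPM against 21.1 and 40.2 CPM, next to Ifit1 described above. Tsix had 3.57 and 2.89 CPM against 11.4 and 9.18 CPM; it is transcribed antisense to Xist. As no source used here gives the strand setting of the counting, its reads cannot be told apart from those of Xist, a gene named after its values were seen, which had 74.3 and 183 CPM against 249 and 196 CPM. Hist2h2aa2 has near-identical copies and its value is uncertain. Ccdc66, Fam110c, Scai, Zfp612, Cd2ap and Shroom4 completed this side, with fitted log2 fold changes of -1.41 to -1.80.

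Most genes that differed at least 2-fold in both pairs were weakly expressed. Of the 274 higher and 623 lower genes, 83 and 111 had a mean of at least 5 CPM, and their median levels were 1.41 and 1.32 CPM, against 19.3 CPM over all tested genes. Protein-coding genes made up 66.4% and 64.7% of them, against 82.3% of all tested genes. By edgeR, 39 and 104 had an unadjusted p under 0.05, beside 301 of all 16066 tested genes. The choice of these genes by their differences in the same libraries raises such counts by itself. Median exonic length was 2927 and 3361 bases, against 3813 over all tested genes, and GC content was 48.7% and 48.2% against 49.1%. In RefSeq promoters the E2F motif was in 2.10% of the higher genes with an entry, near the 3.34% of all tested genes, and CCAAT in 56.6% against 42.7%. Immunoglobulin and T cell receptor segments made up 6 of the higher and 2 of the lower genes. Named after its values were seen, the kappa variable segment Igkv12-89 (chr6:68834846-68835307) had 359 and 424 counts in Large 1 and 2 and 0 and 1 in Medium 1 and 2, or 25.7 and 27.9 CPM against 0 and 0.0616 CPM, and at most 0.169 CPM in the other 4 libraries. It is the gene that DESeq2 called (log2 9.75, adjusted p = 1.45e-05) and limma-trend (adjusted p = 0.0177), while edgeR gave an adjusted p of 0.989; variable segments have near-identical copies, so its counts are uncertain.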

How the data were processed

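RNA-seq libraries were made with the Clontech v4 low-input kit, per the labels' protocols. Build mm10 and the tools STAR 2.5.3a, RSEM 1.3.0 and SAMtools 1.3 are named in the processing notes of the submitters; no source used here gives the annotation release or the strand setting. Deposited were unscaled whole-number counts per gene and log2(TPM + 1) values, both made by the authors. Of 50686 IDs, 50462 matched GENCODE M21. Genes were tested with edgeR 4.0.16 in R 4.3.3 (TMM, filterByExpr with a minimum count of 10, group only, all 8 libraries, 4 residual degrees of freedom, Benjamini-Hochberg threshold 0.05, two-sided). An exact test of 2 against 2 libraries cannot go below 0.333. Pair differences are log2 CPM with a prior count of 2. The fit was tested on simulated data in which libraries varied independently. It called 4% of 100 genes changed 2-fold, 88% of 100 genes changed 8-fold and 5 unchanged genes. Most 2-fold changes would thus be missed. Named genes were the 15 largest agreeing differences in each direction (at least 5 CPM, no overlap), and in each list up to 5 members with the largest agreeing difference and up to 3 with the highest CPM; genes of the printed promoters are the largest with a motif. The comparison, the lists and the naming rule were chosen with earlier results of these data known. Counting error aside, amplified reads are not independent molecules. Alternatives were RLE, DESeq2 1.42.0, limma-trend (3.58.1), other filters, prior counts of 0.5 and 5, the Large and Medium libraries alone, the replicate block, each library left out and TPM.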

Additional observations from a re-analysis of the deposited data

How the results depend on the processing

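No gene passed edgeR's test (0 calls) with RLE factors, a minimum count of 50, Large and Medium alone or any library left out, where the lone library is assumed to vary like the other groups. DESeq2 called 1 gene and limma-trend on log2(TPM + 1) called 1. Without a count filter 58 of 28543 genes passed, 47 higher and 11 lower in Large, with 50 of the 58 in the filtered set. Among them were immunoglobulin segments and genes described above, such as Mpo, Rrm2, Chdh, Sult1a1 and mt-Co3. The cause of the difference from the filtered fit was not tested. Genes at least 2-fold higher in both pairs numbered 485 without a filter, 104 with a minimum count of 50 and 76 on log2(TPM + 1). Those lower numbered 807 without a filter, 291 with that minimum and 196 on log2(TPM + 1).

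The replicate numbers share only a number in the labels. Large and Medium libraries of the same number deviated together (correlation 0.39 across genes), which is a hint from the data and not the design. With the replicate block in edgeR, 0 genes passed (smallest adjusted p = 0.0756), and 2380 in place of 301 genes had an unadjusted p under 0.05.

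Some fitted log2 fold changes of named genes changed sign with a library left out. They ranged from -1.13 to 2.63 for Car1, -1.12 to 0.94 for Cd34, -3.53 to 0.19 for Cd74, -0.34 to 0.01 for Etv6, -1.48 to 0.53 for Fos and -0.02 to 0.43 for Hspa8. The range was -2.19 to 1.99 for Ighm, -3.65 to 1.57 for Igkc, -1.0 to 0.48 for Irf1, -3.46 to 0.26 for Ltb, -3.48 to 0.15 for Ly6a and -1.12 to 1.29 for Mki67. It was -2.98 to 0.36 for Nkx2-3, -2.12 to 0.33 for Nr4a1, -0.33 to 1.70 for S100a8 and -1.26 to 0.12 for Slamf1. On log2(TPM + 1) Ighm was -0.19 and Igkc -1.05, and Mki67, at 0.00 in the reported fit, was -0.00 without a filter and -0.06 with a minimum count of 50; the cause was not tested. List medians under the alternatives were compared with the reported median, with the SD of the list's 2 pair medians as tolerance. This tolerance is widest for lists whose pairs disagree. Of 330 such medians, 244 stayed within it and 86 moved, 67 of these with a library left out. Of the 330, 21 changed sign.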
